A study of Homo sapiens with 6 samples.

Results

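The 10 genes described here encode small nuclear RNAs (snRNAs) of the spliceosome: RNU2-1 for U2, RNU4-1 and RNU4-2 for U4, RNU5A-1, RNU5B-1, RNU5D-1 and RNU5E-1 for U5, and RNU11, RNU12 and RNU4ATAC for the minor spliceosome. They were chosen by name from 59716 annotated genes on 25 chromosomes, and every peak that shared at least 1 base with them was taken from 4 FLASH-seq peak lists. FLASH-seq maps RNA that ultraviolet light has crosslinked to a purified protein. Of the 9974 peaks in the 4 lists, 65 lay on these genes, and all 10 genes carried a peak in at least 3 lists. RNU4ATAC in HSPA8 replicate 1 was the lone gene and list without a peak.

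The baits were HSPA1A, a stress-inducible HSP70 chaperone, and HSPA8, its constitutive relative, each with a 3xFLAG-HBH tag and 2 biological replicates. GFP with the same tag was the control bait, but its peaks were not analysed here; the values below have no control protein to set them against. All libraries came from HEK293 Flp-In T-Rex cells, a human embryonic kidney cell line that expresses an inserted transgene when tetracycline is added; 1 μg/ml tetracycline switched on each bait. The tagged bait is therefore an added copy, present beside the HSP70 proteins that these cells make themselves. The lists held 2744 and 2059 peaks with HSPA1A, and 3131 and 2040 with HSPA8, and 353 and 617 of the HSPA8 peaks, and 0 of the HSPA1A peaks, lay on scaffolds outside the chromosomes. This trait of the lists goes with the bait, so the 2 cannot be told apart in comparisons of baits. Where values are given in pairs below, replicate 1 stands before replicate 2. Read depth is unknown, and the authors give each peak a whole-number score whose meaning is not stated, so scores were ranked within their own list. The labels speak of biological replicates but not of separate cultures, so p-values measure the spread between these lists.

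The spliceosome removes introns from messenger RNA precursors, and each of its snRNAs works as a particle with proteins. U2 pairs with the branch site of the intron, U4 holds U6 in an inactive pairing until the spliceosome is activated, and U5 contacts the exon ends at the splice sites. U11 and U12 take the places of U1 and U2 on the rare introns of the minor class, and U4atac takes the place of U4. Except for U6 and U6atac, these RNAs are made by RNA polymerase II, leave the nucleus, receive a ring of Sm proteins at a site in the RNA, and return. The major snRNAs are abundant in human cells and the minor ones far scarcer.

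Peaks kept to the annotated ends of the RNAs. Of the 65 peaks, 59 lay wholly inside the gene and the other 6 reached past it by 1 base. All peaks of a gene were on the same strand: minus for RNU2-1, RNU4-1, RNU4-2 and RNU5D-1, and plus for the others. The gene table gives no strand for these genes, so positions below run 5′ to 3′ on the strand of the peaks, with base 1 at the annotated start of the RNA, in the RefSeq annotation of GRCh38.p14. Peaks were 24 to 145 bases wide with a median of 42. Within each peak the authors give a narrower inner interval, whose definition is not stated either.

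Where genes overlap another gene, the other gene had 0 peaks outside the snRNA in each list. SIRT4 overlaps both U4 genes and is annotated on the opposite strand to their peaks, and CLASP1 likewise lies opposite to the RNU4ATAC peaks. TAF12-DT runs on the same strand as the RNU11 peaks. CLASP1-AS1 also spans RNU4ATAC, and its strand was not given.

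**Figure D1:**
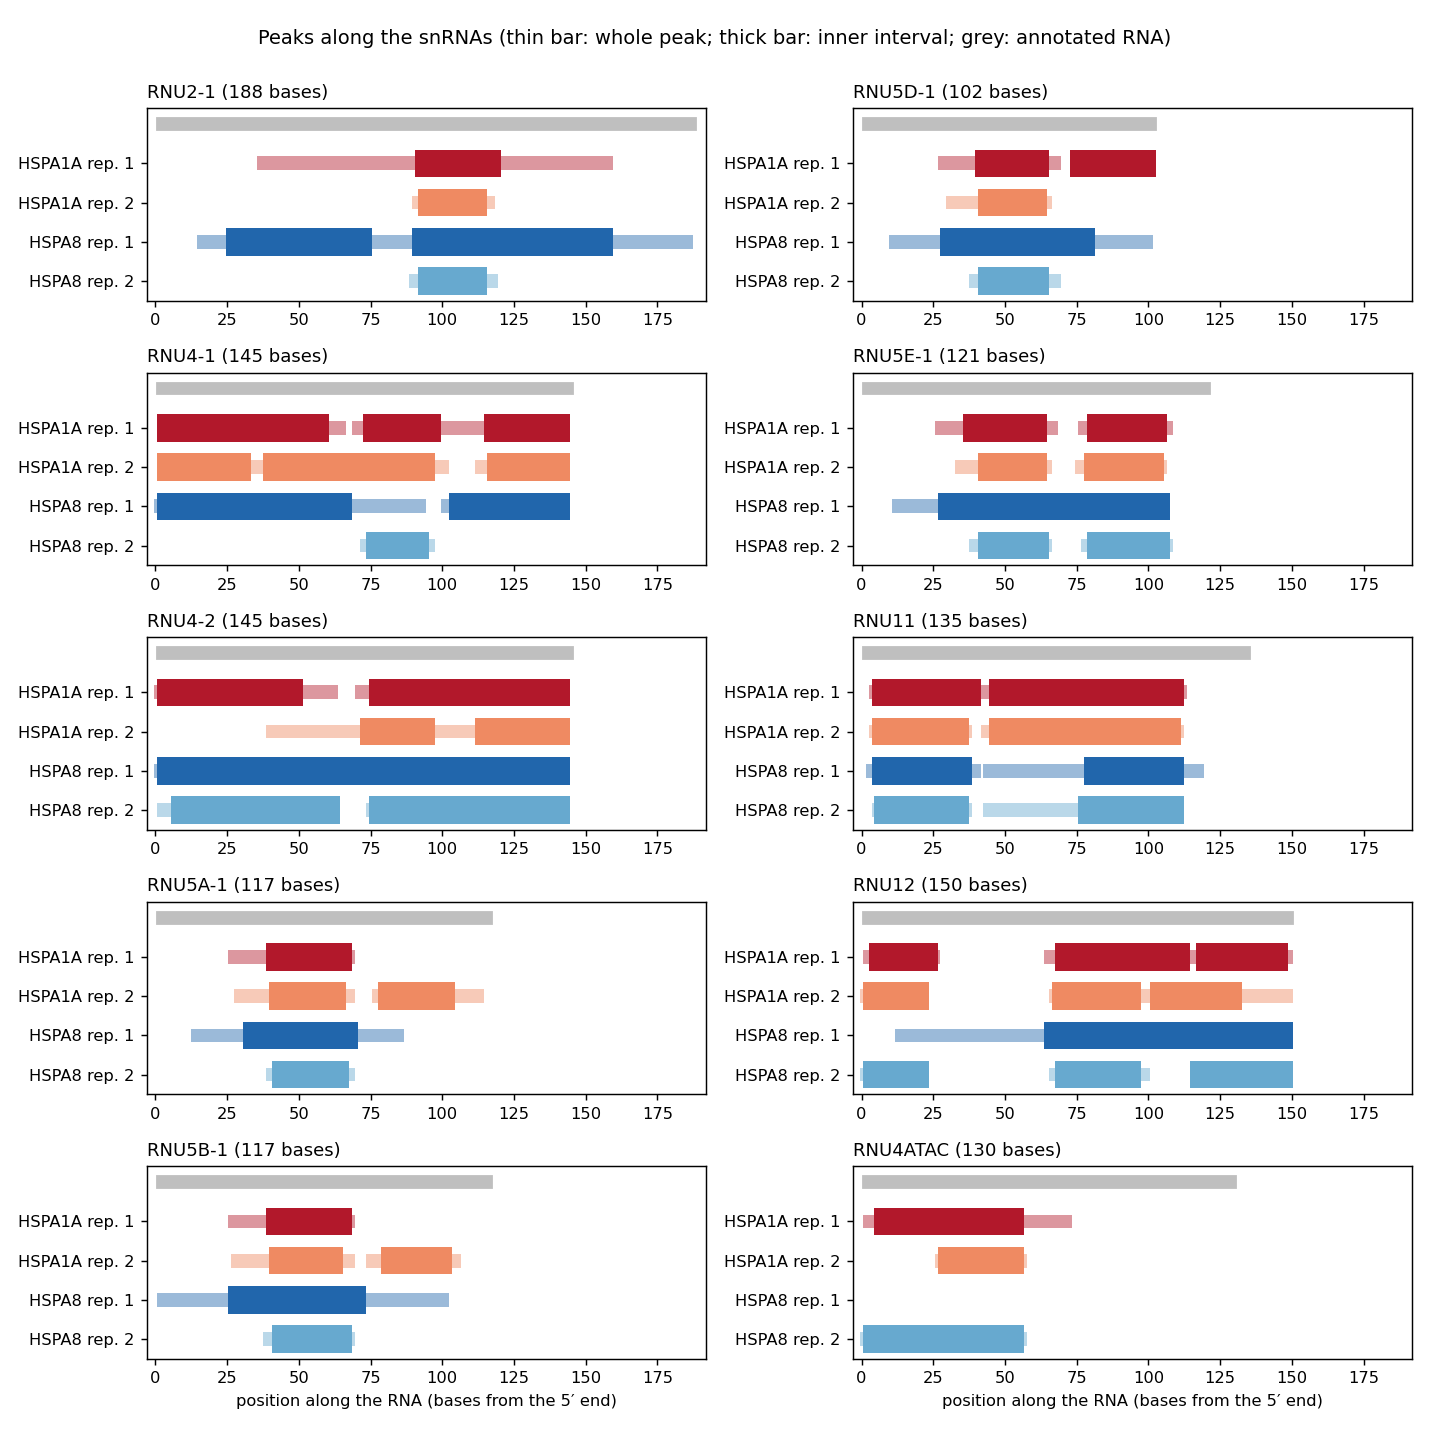
Position of every peak along each of the 10 snRNAs, in bases from the 5′ end (horizontal axis), with a row for each of the 4 lists; pale thin bars are whole peaks, dark thick bars the inner intervals, and the grey bar the annotated RNA. The U5 genes each have bases 39 to 66 covered in all 4 lists, the RNU2-1 peaks share bases 90 to 118, and RNU4ATAC has no bar in HSPA8 replicate 1.

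RNU2-1, the gene of U2 snRNA on chromosome 17 from 43233790 to 43233977, had the highest-scoring peak of the 10 genes in every list. Its best scores were 1472 and 852 in HSPA1A replicates 1 and 2, and 728 and 609 in HSPA8 replicates 1 and 2. These put it at rank 95 of 2744, 41 of 2059, 314 of 3131 and 34 of 2040 peaks. The baits overlap in rank, since HSPA8 replicate 2 was at the 98.4th percentile and HSPA1A replicate 1 at the 96.6th.

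The U2 peaks of the lists numbered 2 were narrow and sat on nearly the same bases, 90 to 118 with HSPA1A and 89 to 119 with HSPA8. In HSPA1A replicate 1 a single peak ran from base 36 to 159, but its inner interval, 91 to 120, fell on the same stretch. HSPA8 replicate 1 had a pair of adjoining peaks, at 15 to 75 with a score of 361 and at 76 to 187 with a score of 728. All 4 lists covered bases 90 to 118, and no list covered bases 1 to 14. The share of the RNA under peaks was 66.0% and 15.4% with HSPA1A and 92.0% and 16.5% with HSPA8, so it differed more within a bait than between baits.

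U4 is made from a pair of neighbouring genes on chromosome 12, RNU4-1 from 120293093 to 120293237 and RNU4-2 from 120291759 to 120291903. Their peaks scored far lower than those of U2. The best score of RNU4-1 was 35 and 14 with HSPA1A and 36 and 4 with HSPA8. The best score of RNU4-2 was 37 in both HSPA1A lists, and 58 and 13 with HSPA8. HSPA8 replicate 2 was the lowest list for both genes, at the 0.760th percentile of its own scores for RNU4-1 and the 34.9th for RNU4-2.

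Peaks covered most of both U4 RNAs in each list, except for RNU4-1 in HSPA8 replicate 2, its lowest-scoring list. Peaks took in 97.9% and 93.1% of RNU4-1 with HSPA1A, and 95.9% and 17.9% with HSPA8. On RNU4-2 they took in 95.2% and 73.1% with HSPA1A, and 99.3% and 93.1% with HSPA8. In HSPA8 replicate 1 one peak of 145 bases spanned RNU4-2 from the base before its annotated start, counted as 0, to base 144. The other lists split the RNA: in HSPA1A replicate 1 RNU4-2 had peaks at 0 to 63 and 70 to 144, and in HSPA8 replicate 2 at 1 to 64 and 74 to 144. The stretches covered in all 4 lists were bases 72 to 94 of RNU4-1, and 39 to 63 and 74 to 144 of RNU4-2. The genes are near-copies of each other, and reads that fit both cannot be divided between them here.

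U5 had a peak over the same numbered bases in all 4 of its genes. Bases were counted from each annotated start without alignment. The RNAs run from 102 bases (RNU5D-1) to 121 (RNU5E-1), so equal numbers need not mark the same site. RNU5A-1 and RNU5B-1 lie on chromosome 15, from 65296051 to 65296167 and from 65304677 to 65304793. RNU5D-1 and RNU5E-1 lie on chromosome 1, from 44731069 to 44731170 and from 11908152 to 11908272. Bases 39 to 66, a run of 28, were under a peak in all 4 genes and all 4 lists. The best peak of RNU5A-1 spanned bases 26 to 69 and 28 to 69 with HSPA1A, and 13 to 86 and 39 to 69 with HSPA8. In RNU5B-1 it spanned 26 to 69 and 27 to 69 with HSPA1A, and 1 to 102 and 38 to 69 with HSPA8. The 5′ edge of this site thus varied between lists, from base 1 to base 38 in RNU5B-1, whereas the 3′ edge was at base 69 in 3 of the 4 lists for both genes.

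Best scores of the U5 genes were close to each other within a list. RNU5A-1 had 186 and 169 with HSPA1A, and 78 and 94 with HSPA8. RNU5B-1 had 189 and 179, and 96 and 105. RNU5D-1 had 137 and 115, and 53 and 60. RNU5E-1 had 143 and 146, and 87 and 96. In percentiles of the own list these genes lay from 83.1 to 91.8 with HSPA1A and from 70.4 to 82.9 with HSPA8, so the baits did not overlap. Each U5 gene had both HSPA1A lists above both HSPA8 lists, as did 32.6% of the 521 genes with a peak in all 4 lists. With percentiles taken on the chromosomes listed in all 4 files, this still held within each U5 gene, but the ranges over the U5 genes overlapped, at 83.1 to 91.8 and 75.1 to 85.1. The U5 genes are paralogs of similar sequence, so their peaks are not independent of each other.

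A further site lay towards the 3′ end of U5 in part of the lists, and in RNU5E-1 in all 4. RNU5E-1 had bases 77 to 106 covered in all 4 lists, and in 3 of them this site, as a separate peak, outscored the site at 39 to 66: 143 against 108 and 146 against 111 with HSPA1A, and 96 against 50 in HSPA8 replicate 2. HSPA8 replicate 1 had a single peak over both sites, from base 11 to 107. Over bases 77 to 102, RNU5A-1 was fully covered in HSPA1A replicate 2, by 38.5% in HSPA8 replicate 1 and by 0% in the others. RNU5B-1 was fully covered in HSPA1A replicate 2 and HSPA8 replicate 1, and RNU5D-1 in HSPA1A replicate 1 and by 96.2% in HSPA8 replicate 1. In RNU5D-1 the covered lists were thus those numbered 1, and in RNU5A-1 and RNU5B-1 they were HSPA1A replicate 2 and HSPA8 replicate 1. Whether RNU5E-1 differs from the other U5 genes at this site was not tested.

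RNU11, on chromosome 1 from 28648600 to 28648734, encodes U11, which recognises the 5′ splice site of minor introns. It had a pair of peaks in every list, split at nearly the same base. The first ran from bases 3 to 41 and 3 to 38 with HSPA1A, and 2 to 41 and 4 to 38 with HSPA8. The second ran from 42 to 113, 42 to 112, 43 to 119 and 43 to 112. Bases 120 to 135, the 3′ end, had no peak in any list. Coverage was the most even of the 10 genes, at 82.2% and 79.3% with HSPA1A and 86.7% and 77.8% with HSPA8. The best scores were 95 and 366 with HSPA1A, and 34 and 88 with HSPA8. HSPA1A replicate 2 stood highest, at the 97.0th percentile, against 80.6, 68.3 and 78.7 in the other lists.

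RNU12, on chromosome 22 from 42615244 to 42615393, encodes U12, which pairs with the branch site of minor introns. Its peaks left a gap in the 5′ part of the RNA. HSPA1A replicate 1 had peaks at bases 1 to 27, 64 to 116 and 117 to 150. HSPA1A replicate 2 had peaks at 0 to 23, 66 to 100 and 101 to 150. HSPA8 replicate 2 had peaks at 0 to 23, 66 to 100 and 115 to 150, with the first pair on exactly the bases found with HSPA1A replicate 2. HSPA8 replicate 1 alone covered the gap, with a peak from 12 to 116 beside one from 117 to 150. The middle site held the highest score in each list: 130 and 177 with HSPA1A, and 32 and 110 with HSPA8.

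RNU4ATAC, on chromosome 2 from 121530880 to 121531009, encodes U4atac, the partner of U6atac, and had the lowest median percentile of the 10 genes. HSPA1A replicate 1 had a peak at bases 1 to 73 with a score of 11, HSPA1A replicate 2 at 26 to 57 with a score of 5, and HSPA8 replicate 2 at 0 to 57 with a score of 6. The 3 lists shared bases 26 to 57, and bases 74 to 130 had no peak. In percentiles these scores were 53.5, 6.82 and 8.82. The scores of HSPA1A replicate 2 and HSPA8 replicate 2 lie low in their lists, and that of HSPA1A replicate 1 near the middle. The authors' threshold for a peak is not given, so the missing peak of HSPA8 replicate 1 does not show that U4atac was unbound there.

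The order of the genes by the median percentile of their best peak was RNU2-1, RNU5B-1, RNU12, RNU5A-1, RNU5E-1, RNU11, RNU5D-1, RNU4-2, RNU4-1 and RNU4ATAC. RNU2-1 was above RNU5B-1 in 4 of 4 lists, and RNU4-2 above RNU4-1 in 4 of 4. From RNU5B-1, with a median of 84.5, to RNU5D-1, with 77.7, neighbours changed places in at least 1 list and do not differ beyond their spread. RNU5D-1 was above RNU4-2 in 3 of 4 lists, and RNU4-1 above RNU4ATAC in 2 of the 3 lists that had both.

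**Figure D2:**
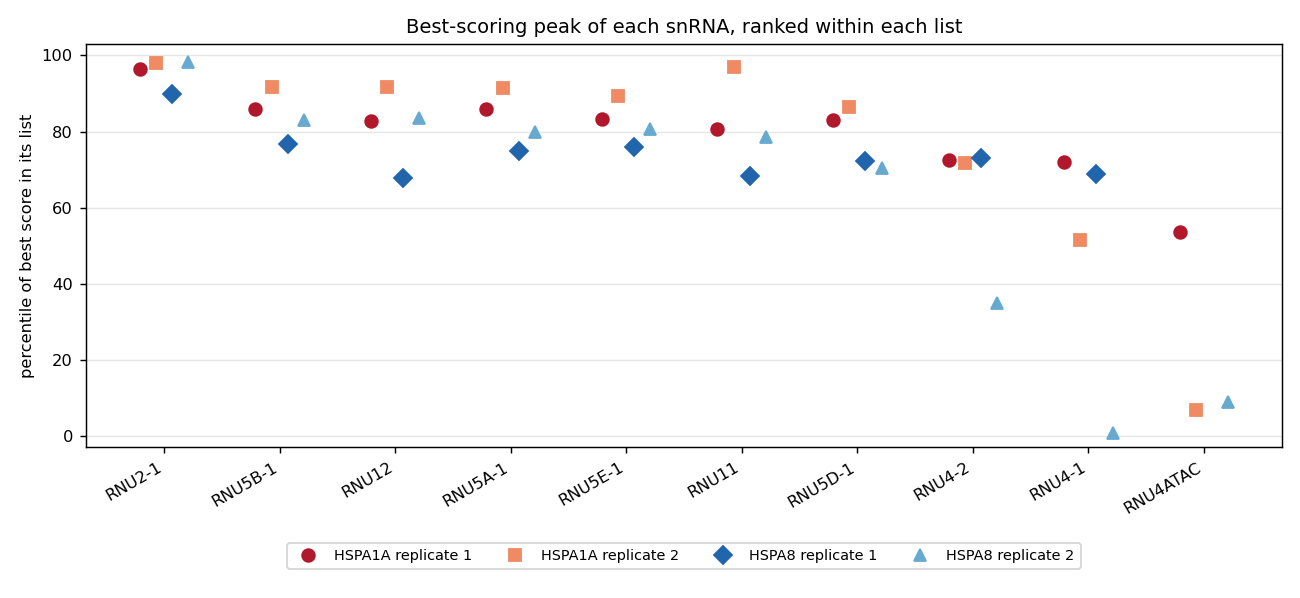
Percentile of the best-scoring peak of each snRNA among all scores of its own list (vertical axis), ordered by the median over lists; each marker is a list. RNU2-1 is the highest gene in each list, and RNU4ATAC has 3 markers because HSPA8 replicate 1 had no peak there.

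Whether these RNAs were recovered with both chaperones was examined by counting genes. With HSPA1A 10 and 10 of the 10 genes had a peak, and with HSPA8 9 and 10 did. Of all 59716 genes, 3.04% and 2.00% were peaked in the lists of HSPA1A and 3.05% and 1.28% in those of HSPA8. For the 144 snRNA genes outside the 10, many of them variant copies, the same shares were 42.4%, 35.4%, 39.6% and 28.5%. A peak in all 4 lists was present at 9 of the 10 genes, against 0.872% of all genes and 26.4% of those 144 snRNA genes. HSPA1A thus had 10 ± 0 genes (SD, n = 2) and HSPA8 9.5 ± 0.71 (SD, n = 2), which differ by 0.5 (two-sided exact permutation test, p = 1). The difference rests on RNU4ATAC in HSPA8 replicate 1, and without that list it is 0. With 2 lists against 2, no exact test between baits here can go below p = 0.333.

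Their share of all peaks was small. HSPA1A replicate 1 had 18 peaks on the genes (0.656%, 95% Wilson interval 0.415 to 1.03) and replicate 2 had 19 (0.923%, 0.592 to 1.44). HSPA8 replicate 1 had 13 (0.415%, 0.243 to 0.709) and replicate 2 had 15 (0.735%, 0.446 to 1.21). The intervals cover counting error over peaks alone. HSPA1A averaged 0.789% ± 0.189 (SD, n = 2) and HSPA8 0.575% ± 0.226 (SD, n = 2). The gap of 0.214 percentage points is about the size of either SD (two-sided exact permutation test, p = 0.667). On chromosomes listed in all 4 files the difference was 0.0283, and with peaks within 50 bp merged it turned to -0.214 (exact permutation test, p = 1 for each).

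The length of RNA under peaks did not separate the baits. Of the 1350 bases of the 10 genes, 69.6% and 57.6% lay under a peak with HSPA1A, and 79.8% and 44.7% with HSPA8. Both HSPA8 values lie outside the HSPA1A values, one above and one below. HSPA1A averaged 63.6% ± 8.49 (SD, n = 2) and HSPA8 62.3% ± 24.8 (SD, n = 2), which differ by 1.30 percentage points (two-sided exact permutation test, p = 1). Without HSPA8 replicate 1 the difference was 18.8, and without HSPA8 replicate 2 it was -16.2. The median width of these peaks moved with coverage, at 44 and 35 bases with HSPA1A and 92 and 32 with HSPA8, as against 48, 44, 57 and 51 over all peaks of the lists. The part of peak width in the result was not tested.

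**Figure D3:**
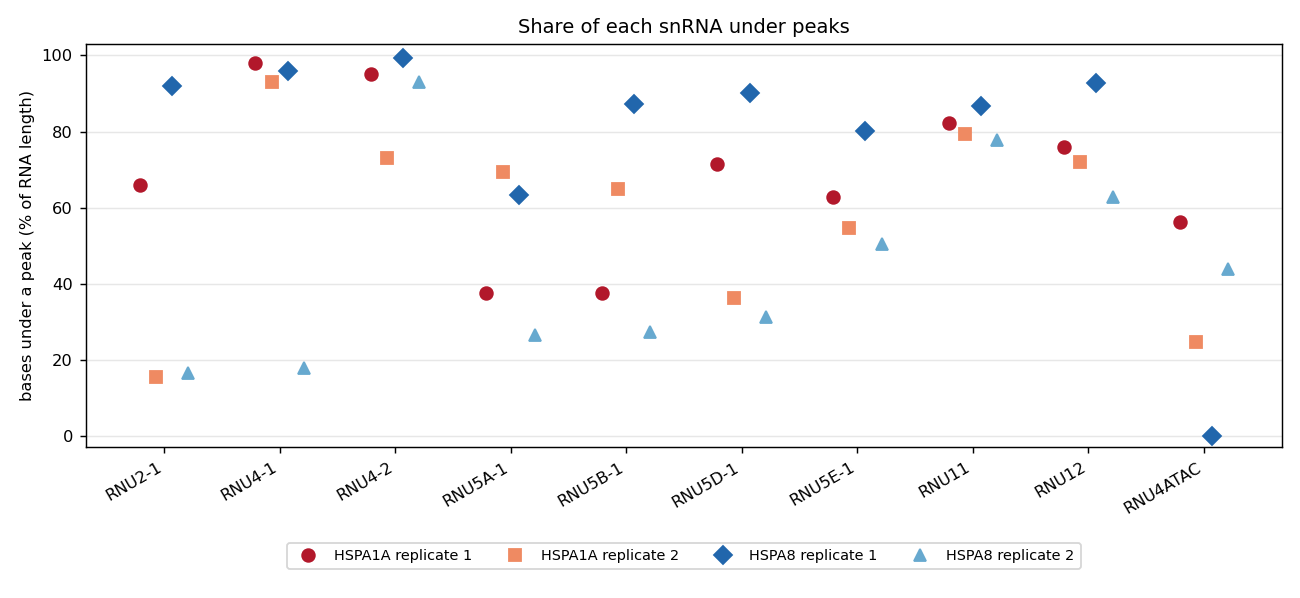
Share of each snRNA's bases under a peak, in percent of its length (vertical axis), with a marker for each list. RNU11 lies between 77.8% and 86.7% in all 4 lists, whereas RNU2-1 spreads from 15.4% to 92.0%.

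Whether the chaperones covered different stretches of the same RNAs was examined with the Jaccard index, the bases covered in both lists divided by the bases covered in either. It was 0.682 between the HSPA1A lists and 0.463 between the HSPA8 lists. Between baits it was 0.725 for the lists numbered 1, 0.630 for the lists numbered 2, and 0.641 and 0.601 for the crossed pairs. The mean was 0.573 within baits and 0.649 between baits, a difference of -0.0767 (exact permutation over 3 splits into pairs, p = 0.667). Lists of the same bait were thus no more alike than lists of different baits. Without HSPA8 replicate 1 or HSPA8 replicate 2 the difference was 0.0464 and 0.0196, the opposite sign. Among single genes RNU11 had the most similar coverage, with a mean index of 0.931 within and 0.939 between baits. RNU2-1 was at 0.207 within and 0.517 between baits.

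The peaks of these genes ranked higher among the HSPA1A scores than among the HSPA8 scores, as did those of most genes with a peak in all 4 lists. Over the 9 genes with a peak in all 4 lists, the mean percentile of the best peak was 82.6 and 85.4 with HSPA1A, and 74.2 and 67.8 with HSPA8. The difference of the bait means was 13.0 percentile points (two-sided exact permutation test, p = 0.333, the lowest that 4 lists allow). All 9 genes had the higher mean with HSPA1A, by 3.12 (RNU2-1) to 27.0 (RNU4-1) with a median of 11.5. In 5 of them, RNU5A-1, RNU5B-1, RNU5D-1, RNU5E-1 and RNU11, both HSPA1A lists were above both HSPA8 lists, and in 0 genes the reverse held. Of the 521 genes with a peak in all 4 lists, 32.6% had HSPA1A above and 0.384% had HSPA8 above. Over those 521 genes the median difference was 10.8, and 490 had the higher mean with HSPA1A. On chromosomes listed in all 4 files the mean difference of the 9 genes was 8.57 (exact permutation test, p = 0.333) and its median 6.96, against a median of 5.55 for the 521 genes, and 4 of the 9 genes had HSPA1A above. There 19.0% of the 521 genes had HSPA1A above and 0.384% had HSPA8 above. The shift is therefore close to that of the 521 genes, and no test was made of a difference from them. Those are 0.872% of all genes. They include the 9 genes themselves and overlapping genes that hold the same peak, such as TAF12-DT for RNU11.

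**Figure D4:**
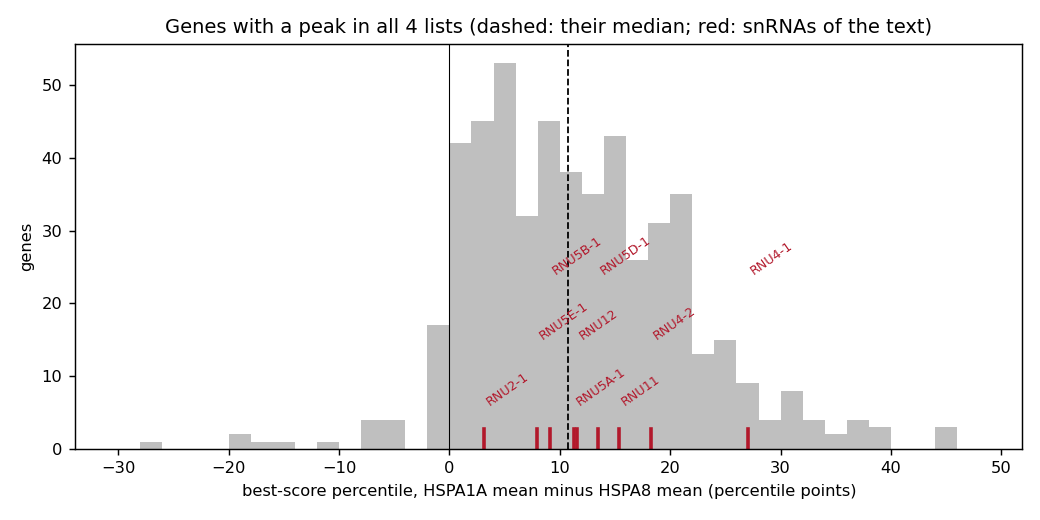
Distribution over the 521 genes with a peak in all 4 lists of the best-score percentile with HSPA1A minus that with HSPA8 (horizontal axis, percentile points; vertical axis, number of genes), with the 9 snRNA genes marked in red. The dashed line is the median of all 521 genes at 10.8; the snRNA genes lie from 3.12 to 27.0 on both sides of it.

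By likeness of the percentiles over the 4 lists, the gene closest to the median of the 9 was RMRP, the RNA of RNase MRP, at a mean absolute difference of 1.74 percentile points. Its best scores were 167 and 242 with HSPA1A, and 61 and 77 with HSPA8. The next were TAF12-DT, at 3.49, whose only peaks are those of RNU11, and LOC105369795, at 3.54. The latter is tied with PPM1H and the U1 pseudogene RNU1-83P, which hold the same peak.

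Of 3 other snRNA genes of these families, taken by their symbols, 2 also carried peaks, and RNU2-63P had none in any list. RNU2-2, a separate U2 gene on chromosome 11 from 62841619 to 62841809, had best scores of 328 and 228 with HSPA1A, and 391 and 138 with HSPA8, each below RNU2-1 in the same list. Peaks on RNU2-2 overlapped bases 90 to 118 in all 4 lists, as on RNU2-1. In HSPA1A replicate 1 and in both HSPA8 lists, a further peak began at base 122 or 124. RNU5F-1, on chromosome 1 from 44721785 to 44721902, had its best peak at bases 26 to 62 and 27 to 63 with HSPA1A, and 5 to 68 and 26 to 66 with HSPA8. Its scores, 64 and 50 against 34 and 23, were below those of the other U5 genes in the same list. Family copies annotated under other kinds of symbol were not searched for. The genes LOC124904135 to LOC124904146 had a peak in all 4 lists. Their best percentile was higher with HSPA1A by 2.86 to 3.83 points, against 3.12 for RNU2-1. Whether they are U2 copies that share reads with RNU2-1 was not tested.

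Pseudogenes of U2 had peaks in a larger share than those of U4 in each list. Of 68 U2 pseudogenes, 29 and 29 had a peak with HSPA1A and 25 and 24 with HSPA8. Of 89 U4 pseudogenes, 5 and 3 had a peak with HSPA1A, and 6 and 0 with HSPA8. Of 29 U5 pseudogenes, 7 and 6 had a peak with HSPA1A, and 5 and 6 with HSPA8. The 23 pseudogenes of U11, U12 and U4atac had 0 in each list. Of all genes, 3.04% and 2.00% had a peak with HSPA1A, and 3.05% and 1.28% with HSPA8. At such shares, 0 of 23 does not set these pseudogenes apart from genes in general. These shares were not tested against each other.

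Only copies with a peak in 2 or more lists, outside chromosome Y, were placed here. The counts are thus not shares of all copies of that length. Among the copies placed, peaks on those of like length often fell on the same stretch as those of the genes. Among 16 U2 copies, RNU2-2 included, within 5 bases of the length of RNU2-1, the best peak overlapped bases 90 to 118 in 11 of 16 and 12 of 16 with HSPA1A, and in 9 of 14 and 12 of 15 with HSPA8. In RNU2-48P, on chromosome 5, this peak covered bases 90 to 115 in HSPA1A and HSPA8 replicate 1 alike, and 91 to 116 in replicate 2 of each; it scored 431 and 655 with HSPA1A, and 77 and 433 with HSPA8. The U2 copy RNU2-28P instead had its only peak nearer the 5′ end. It lay at bases 16 to 49 and 16 to 46 with HSPA1A, and 15 to 48 and 17 to 48 with HSPA8. Among 4 U5 copies, RNU5F-1 included, near the length of RNU5A-1, the best peak overlapped bases 39 to 66 in 4 of 4 in every list. Positions in copies were counted on each gene without alignment, and how reads matching more than 1 copy were placed is not given in the sources used here, so peaks on copies and on the genes may hold the same reads.

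Among related groups, all 4 U1 genes had a peak in each list, and the 6 U6 and U6atac genes had 5, 6, 5 and 5. The U1 genes here are those with RNU1 symbols annotated as snRNA, and genes with RNVU1 symbols were left out. The median share of a U1 gene under peaks was 88.4% and 81.7% with HSPA1A, and 98.2% and 83.8% with HSPA8, against 68.8%, 67.1%, 88.7% and 37.6% for the 10 genes. Genes for RNAs and proteins that work with these snRNAs were peaked in shares that are read against those of all genes, 3.04%, 2.00%, 3.05% and 1.28%. Of 29 scaRNA genes, whose RNAs guide the modification of snRNAs in Cajal bodies, 1 and 0 had a peak with HSPA1A and 2 and 2 with HSPA8. Of 43 genes for proteins of the U2, U4/U6.U5 and minor particles, 3 and 0 had a peak with HSPA1A, and 2 and 1 with HSPA8. TXNL4A, which encodes a U5 protein, was in 3 lists, while SNRPB, SF3B4 and PRPF8 were in 1 list each.

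**Figure D5:**
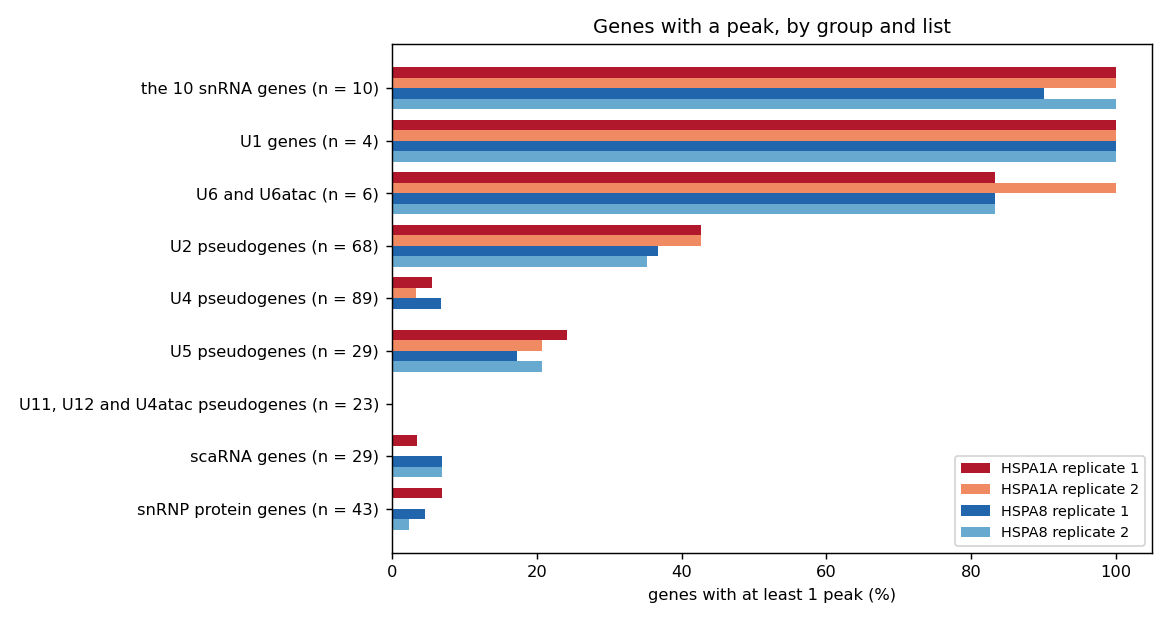
Percent of genes with at least 1 peak (horizontal axis) in each gene group, with a bar for each of the 4 lists and the number of genes in each group in brackets. The snRNA genes are near or at the full count, U2 pseudogenes have 24 to 29 of 68, and U11, U12 and U4atac pseudogenes have 0 of 23. Over all genes the shares are 3.04% and 2.00% with HSPA1A, and 3.05% and 1.28% with HSPA8.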

How the data were processed

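Peak lists of 4 FLASH-seq libraries were used, one for each of 2 replicates of HSPA1A and HSPA8. For every peak the authors deposited its position, strand, inner interval and a whole-number score. The meaning of the score, the peak caller and its threshold are not given in the sources used here. The submitters' processing notes name GRCh38, Trim Galore 0.4.4 and STAR 2.6.0b, and per the labels' protocols random tags in the adapters served to merge PCR duplicates. Gene positions came from RefSeq (GRCh38.p14). No sequence of the 10 RNAs was used here, so the planned motif search was not run.

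A peak belonged to a gene if it shared at least 1 bp with it on either strand. Percentiles are midranks of the score within a list. Baits were compared by exact permutation over the 6 orders of labels, and Jaccard indices over 3 splits. The peak share, gene count, covered share and Jaccard comparison were checked on simulated lists, but the score percentiles were not. The members and lists were chosen with earlier results of these data known. Genes named were the 10 members, family copies found in 2 or more lists, the 3 genes most like the members, and genes of the listed pathway groups. The genes LOC124904135 to LOC124904146 were named in addition. Tables and permutations were made with pandas 2.3.3, scipy 1.17.1 and numpy 2.4.6 under Python 3.11.15, and figures with matplotlib 3.10.9.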

Additional observations from a re-analysis of the deposited data

How the results depend on the processing

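Other settings gave 170 values. Of these 157 pointed the same way with no call changed, or moved by less than 1 SD of the replicates, 8 moved further and 5 reversed. The share of peaks on the 10 genes, HSPA1A minus HSPA8, reversed to -0.214 percentage points with peaks within 50 bp merged. It was 0.422 with peaks at or above the median score of each list and 0.0283 on chromosomes listed in all 4 files, and lay between 0.0541 and 0.374 when single replicates were dropped. Under the same omissions the covered share ranged from -16.2 to 18.8 percentage points, the number of genes with a peak from 0 to 1, the Jaccard difference from -0.220 to 0.0464 and the score percentile difference from 9.83 to 16.7. The percentile difference was 20.0 with peaks at or above the median score and 8.57 on the chromosomes of all 4 files. The causes were not tested. Matching strand or asking for 50% of the peak on the gene could not change any of the 5 comparisons. All 65 peaks lay on the strand used for their gene and reached at most 1 base past it. Keeping the chromosomes of all 4 files could not change the gene count, covered share or Jaccard index, since all 10 genes lie on them. Taking the replicate number as a block leaves each difference of bait means as it was. The values fixed in these ways are among the 157 and add nothing to them. Without read depth, no count of peaks can be scaled to sequencing.

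The labels name no batch shared by a replicate number, so in the labels nothing but the number links such lists. Between lists with equal numbers, the departures from the bait mean had a correlation of -0.0915 for covered share (10 genes) and 0.893 for the best percentile (9 genes, not independent of each other). With the replicate block, the share difference was 0.214 and the percentile difference 13.0 (exact sign-flip permutation, p = 0.5 for each, the smallest possible). The Jaccard difference against between-bait pairs of different numbers was -0.0486.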

Other observations

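RNU7-1 encodes U7, which is no part of the spliceosome but guides the 3′ processing of histone messenger RNAs and carries an Sm ring of its own type. Its peak covered exactly the same bases in all 4 lists, 15 to 44 of the RNA, on chromosome 12 from 6943830 to 6943859 and on the plus strand. It scored 82 and 132 with HSPA1A, and 19 and 54 with HSPA8.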
